A study of Mus musculus with 965 samples.

Results

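The genes that carry a cell through G2 and mitosis were followed in single cells of mouse embryoid bodies. The set held 35 genes, listed by name, of the 36849 genes in the deposited count table. All 35 were found there, and all 35 passed the filter on low counts. Embryoid bodies (EBs) are aggregates that embryonic stem cells (ESCs) form once leukemia inhibitory factor is withdrawn. The 965 cells came from E14 ESCs of 3 genotypes, WT (wild type), 3AKO (Dnmt3a-/-) and 3BKO (Dnmt3b-/-), sampled at days 3, 6 and 8. Dnmt3a and Dnmt3b encode the de novo DNA methyltransferases. WT was 1 line. Clones 3A2 and 3A38 made up 3AKO, whereas 3BKO was made up of 3B126 and 3B77. No day 8 cells of 3A2 were analysed here, so that clone and day gave 14 combinations of 40 to 89 cells. Cells of a clone and day came from 1 pool of EBs. According to the labels, batch 1 held the 3AKO clones, batch 2 WT and 3B126, and batch 3 held 3B77. Only the pair 3B126 and WT shared a batch, and for all other pairs of genotypes the batch cannot be told apart from the genotype.

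The products of these genes act at the end of the cell cycle. B-type cyclins activate Cdk1 to start mitosis, and Plk1 and the Aurora kinases build the spindle and prepare the chromosomes. The spindle checkpoint delays the anaphase-promoting complex until kinetochores are attached, and the central spindle then guides the cut between the daughter cells. Most of these transcripts are made late in the cycle and are low in cells that have left it. Pluripotent stem cells are known for fast division with a short G1, whereas neurons are post-mitotic.

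Many late cell cycle promoters carry a CHR element (cell cycle genes homology region) near the start and CCAAT boxes before it. In the cell cycle the MuvB complex binds the CHR and NF-Y binds CCAAT. A promoter window of 250 bases before to 50 bases after the annotated start was given for 32 of the 35 genes. It held TTTGAA or TTCGAA, the CHR letters searched on both strands, in 27 of the 32 (84.4%), against 21.7% of all 27025 genes with a window. CCAAT, searched on both strands, stood in 25 of the 32 (78.1%), against 41.1% of all genes. At least 2 CCAAT boxes stood in 18 (56.3%), against 13.3% of all genes, and both motifs together in 23 (71.9%), against 8.61%. Of 32 genes of S phase and DNA replication with a window, 7 (21.9%) held a CHR and 23 (71.9%) held CCAAT. A match is a description of these letters and not a measured site. Windows for Kif20a, Aurkb and Tpx2 were not analysed here.

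The promoters of 7 genes are printed here because they belong to the genes on which the comparisons turn and show the range of arrangements. Each is the 120 bases before the start on the gene's own strand (RefSeq, GRCm38.p6). Capitals mark every match to either motif on either strand that lies wholly within the stretch. The regions are chr19:37376262-37376381 (plus) for Kif11, chr11:99024190-99024309 (minus) for Top2a and chr10:69352913-69353032 (minus) for Cdk1. They are chr9:70421555-70421674 (minus) for Ccnb2, chr11:40733438-40733557 (minus) for Hmmr, chr7:80294331-80294450 (plus) for Prc1 and chr11:117849117-117849236 (plus) for Birc5.
Kif11: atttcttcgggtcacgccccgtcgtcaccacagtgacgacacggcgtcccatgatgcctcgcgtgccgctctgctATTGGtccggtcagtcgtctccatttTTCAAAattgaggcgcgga
Top2a: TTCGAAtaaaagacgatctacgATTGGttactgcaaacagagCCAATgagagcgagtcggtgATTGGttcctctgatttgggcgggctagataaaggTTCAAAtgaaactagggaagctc
Cdk1: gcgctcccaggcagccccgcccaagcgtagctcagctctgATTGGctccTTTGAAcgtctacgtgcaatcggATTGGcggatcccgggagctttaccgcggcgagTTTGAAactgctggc
Ccnb2: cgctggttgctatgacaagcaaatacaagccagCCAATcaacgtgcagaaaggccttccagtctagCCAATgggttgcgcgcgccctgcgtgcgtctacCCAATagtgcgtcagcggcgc
Hmmr: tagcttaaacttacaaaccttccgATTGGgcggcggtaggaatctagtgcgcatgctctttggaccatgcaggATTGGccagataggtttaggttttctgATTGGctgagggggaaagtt
Prc1: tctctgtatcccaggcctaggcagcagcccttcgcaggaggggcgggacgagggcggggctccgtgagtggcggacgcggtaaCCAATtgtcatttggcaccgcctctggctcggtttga
Birc5: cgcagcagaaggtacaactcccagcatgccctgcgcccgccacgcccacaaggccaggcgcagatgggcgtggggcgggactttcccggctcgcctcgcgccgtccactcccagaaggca

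Kif11 had 1 CHR at base 19 before its start and 1 CCAAT box at base 45. Top2a and Cdk1 held 2 CHR each in these stretches. Ccnb2 and Hmmr held 3 CCAAT boxes each and no CHR within the 120 bases, although both had a CHR just after the start, at bases 5 and 9. The CHR of Prc1 began at base 5 before its start and ran past the end of the printed stretch, so it is not in capitals. Birc5 had neither motif, and the same was true over the whole window for Nuf2 and Nusap1.

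Reads of the 14 sums of clone and day ranged from 9810248 to 44529830, and a single cell held between 50096 and 3442378 reads, with a median of 255315. Before cells were compared, each was thinned at random to 50000 reads. The labels of 2 day 8 libraries were in doubt. The library labelled 3B77 day 8 had Y-linked reads in 11 of 40 cells, whereas 3B77 had them in 0 of 150 cells at the earlier days (an upper limit of 2%). Of the WT day 8 plates, C344 had them in 0 of 68 cells (up to 4.41%) and C343 in 3 of 21, whereas 41.8% of WT cells had them at the earlier days. The Kif11 change to day 8, the counts by clone and the mean shares of cells are also given without these libraries. Every comparison with WT at day 8 rests on the WT library in doubt and has no value without it.

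A G2 and mitosis gene was read in most cells. After thinning, the median cell had a read for 22 of the 35 genes, 10 cells had all 35 and 32 cells had none. Detection over all cells ran from 32.5% for Kif20a to 85.8% for Ccnb2, with Top2a at 84% and Mki67 at 74%. A cell with a read for at least 10 of the 35 genes was called G2/M-high. This marks a range of expression, not a phase of the cycle, and 58 cells lay near the limit, with 8 to 11 genes. In all cells, 798 of 965 cells were G2/M-high (82.7%, exact 95% interval 80.2 to 85.03). Intervals and zero limits cover counting error only. No doublet caller was run.

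At day 3 nearly all cells were G2/M-high. The share was 69 of 74 in WT (93.2%), 69 of 69 in 3A2, 70 of 70 in 3A38, 57 of 73 in 3B126 (78.1%) and 78 of 79 in 3B77 (98.7%). At day 6 the shares were 86.6%, 87.5%, 81.9%, 91.4% and 94.4% in the same order. The 5 clones thus stayed close together at day 6.

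At day 8 the libraries split. Clone 3B126 had 45 of 51 G2/M-high cells (88.2%, interval 76.1 to 95.6), and WT 66 of 89 (74.2%, 63.8 to 82.9). Clone 3A38 had 21 of 72 (29.2%, 19 to 41.1), and the library labelled 3B77 had 16 of 40 (40%, 24.9 to 56.7). The intervals of 3A38 and of the library labelled 3B77 lay below those of 3B126 and WT, but they cover counting error within a library only. The 2 WT plates also differed, with 59 of 68 on C344 (86.8%, 76.4 to 93.8) and 7 of 21 on C343 (33.3%, 14.6 to 57).

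The mean share over clones was 94% ± 9.33 (SD, n = 5) at day 3, 88.4% ± 4.75 (n = 5) at day 6 and 57.9% ± 27.9 (n = 4) at day 8. Without the 2 libraries in doubt the day 8 mean was 58.7% (n = 2, from 3A38 and 3B126). The day 8 shares thus ranged from 29.2% to 88.2%.

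**Figure D1:**
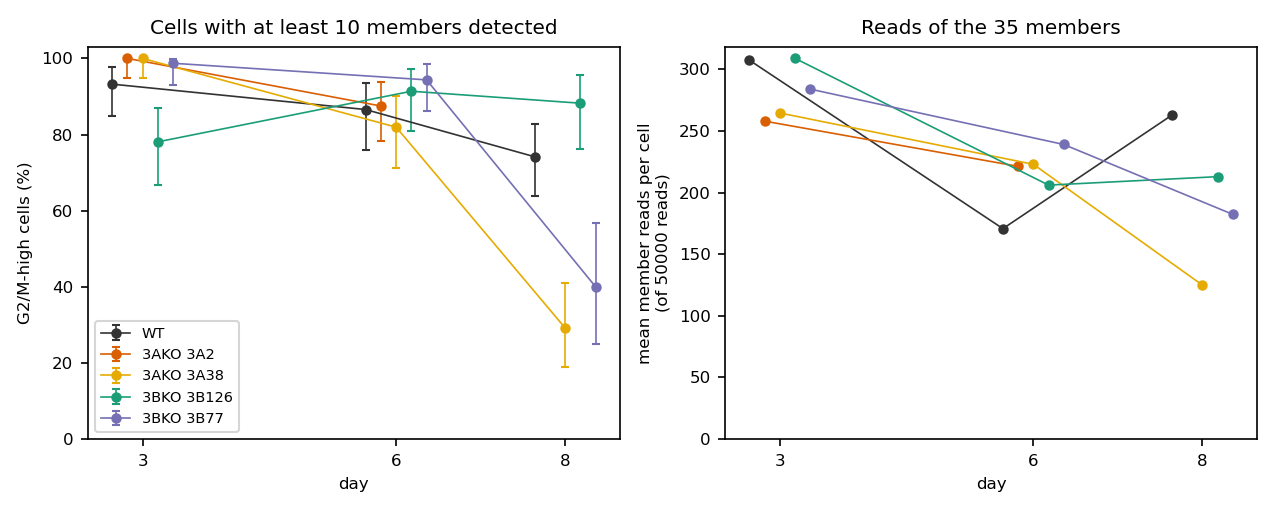
The left panel plots the percentage of cells with a read for at least 10 of the 35 genes by day, with exact 95% intervals, and the right panel the mean reads of the 35 genes per cell of 50000 reads, 1 line per clone. At day 8 clones 3B126 and WT sit at 88.2% and 74.2%, above 3A38 at 29.2% and the library labelled 3B77 at 40%.

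The distribution of detected genes per cell was wide at day 8. In 3A38 at day 8 the median cell had a read for 1 gene, and 21 of 72 cells had none. In the library labelled 3B77 the median was 4, against 19 in 3B126 and 22 in WT. Cells under the limit of 10 genes had a median of 1 gene in 3A38 and in the library labelled 3B77, 2 in WT and 6.5 in 3B126. Over the 252 cells of day 8, those that were G2/M-high had a median of 24 of the 35 genes and 245 reads, and the others had a median of 1 gene. S phase genes moved with them, with a median of 28 of 43 detected in the first and 7.5 in the second. So did the number of all genes detected, with medians of 4068 and 2822.5, and its part in the split was not tested.

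**Figure D2:**
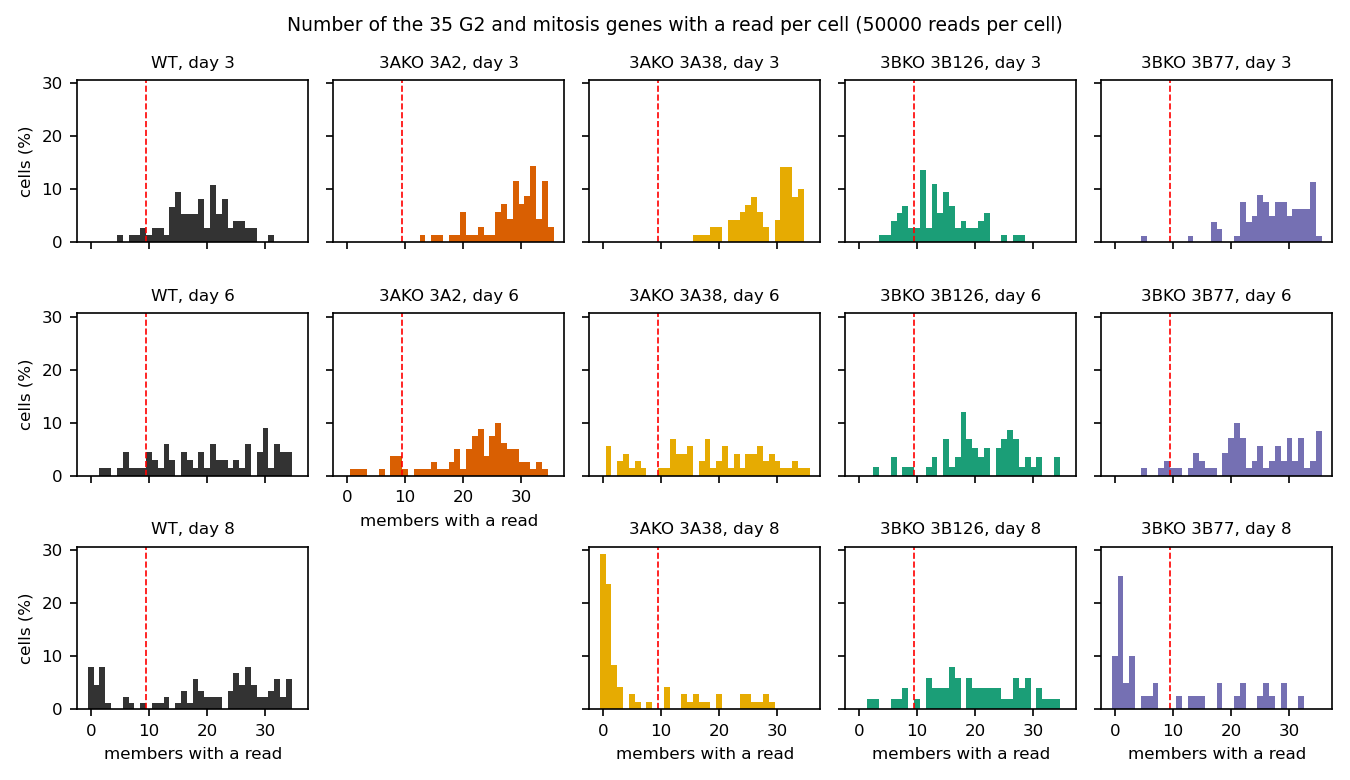
Each panel is a histogram for 1 clone and day of the number of the 35 genes with a read in a cell (x axis), as a percentage of its cells (y axis), and the dashed line marks the limit of 10 genes. The 3A38 panel at day 8 piles up at 0 and 1, with a median of 1, whereas the 3A38 panel at day 3 has its median at 30.

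Reads and detection differed in their order of clones at day 3. In 3B126 at day 3 the median cell had a read for 13 genes, the lowest of day 3, against 28 to 30 in 3A2, 3A38 and 3B77 and 19 in WT. Yet the mean reads of the 35 genes per cell were 309 in 3B126 and 307.4 in WT, above the 258 to 284 of the other clones. The median of all genes detected after thinning was 2654 in 3B126 and 3527 in WT, against 4862.5 to 5107 in the other clones. Its part in the lower detection of the 35 genes and in the 78.1% share of 3B126 was not tested. Mean member reads over clones were 285 ± 23.6 (SD, n = 5) at day 3, 212 ± 25.9 (n = 5) at day 6 and 196 ± 57.7 (n = 4) at day 8.

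To test the change over time gene by gene, reads were summed per clone and day and compared with edgeR over all 24083 genes that passed the filter. In such sums, fewer cells that express a gene and less RNA per cell cannot be told apart. From day 3 to day 8, 32 of the 35 genes had a negative log2 fold change, and their median was -0.70, against -0.01 over all genes. One gene, Kif11, passed the adjusted threshold of 0.05, and none passed in the higher direction. Over all genes, 0.154% were called lower and 0.669% higher. At an unadjusted p under 0.05 stood 11 of the 35 (31.4%), against 16.3% of all genes in either direction. Every day 8 sum lay below every day 3 sum for 4 of the 35 (11.4%), Kif11, Kif20a, Kif20b and Aurka, against 3.05% of all genes. Compared clone by clone, 9 of the 35 (25.7%, against 10% of all genes) were lower at day 8 in all 4 clones with both days. Without the libraries in doubt, 14 (40%, against 19.6%) were lower in both 3A38 and 3B126.

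Kif11 encodes the plus-end motor that pushes spindle poles apart. It spans chr19:37376403-37421859 on the plus strand (GENCODE annotation, GRCm38.p6). At day 3 its level was 287.5 CPM (reads scaled to a common library size) in WT, 172.9 in 3A2, 209.0 in 3A38, 448.6 in 3B126 and 192.9 in 3B77. At day 6 the levels were 42.5, 87.4, 53.1, 97.9 and 105.2 CPM. At day 8 they were 82.5 in WT, 11.4 in 3A38, 37.9 in 3B126 and 65.6 in the library labelled 3B77. All 4 day 8 values and all 5 day 6 values lay below the lowest day 3 value, and within each of the 3 batches the day 8 values lay below those of day 3. The mean fell from 262 ± 112.9 CPM (SD, n = 5) to 49.4 ± 31.3 (n = 4). The edgeR log2 fold change was -2.83 ± 0.54 (SE, adjusted p = 0.0259). It averages the genotypes and is not the ratio of these means.

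The Kif11 call was lost when 3A38 was left out. In the fit without the 3A38 day 8 library only 1 gene of the whole table was called. Other genes were still called without clone 3A38 and with clone as a replicate block, fits in which Kif11 was not. Without clone 3A38 the log2 fold change was -2.26 with an adjusted p of 0.144, without the 3A38 day 8 library -2.25 (0.187), and with clone as a replicate block -2.59 (0.0539). Without WT day 8 and the library labelled 3B77 it was -3.58 (0.0375). The day 3 level of Kif11 in batch 2 also depended on how cells were weighted. A Kif11 read was found in 26% of thinned 3B126 cells and 43.2% of WT cells at day 3, against 77.1% to 82.6% in the other clones. In sums of thinned cells the day 3 levels were 175 CPM in 3B126 and 165 in WT, against 139.3 to 183 in the others, and the log2 fold change was -2.17 (adjusted p = 0.0282).

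**Figure D3:**
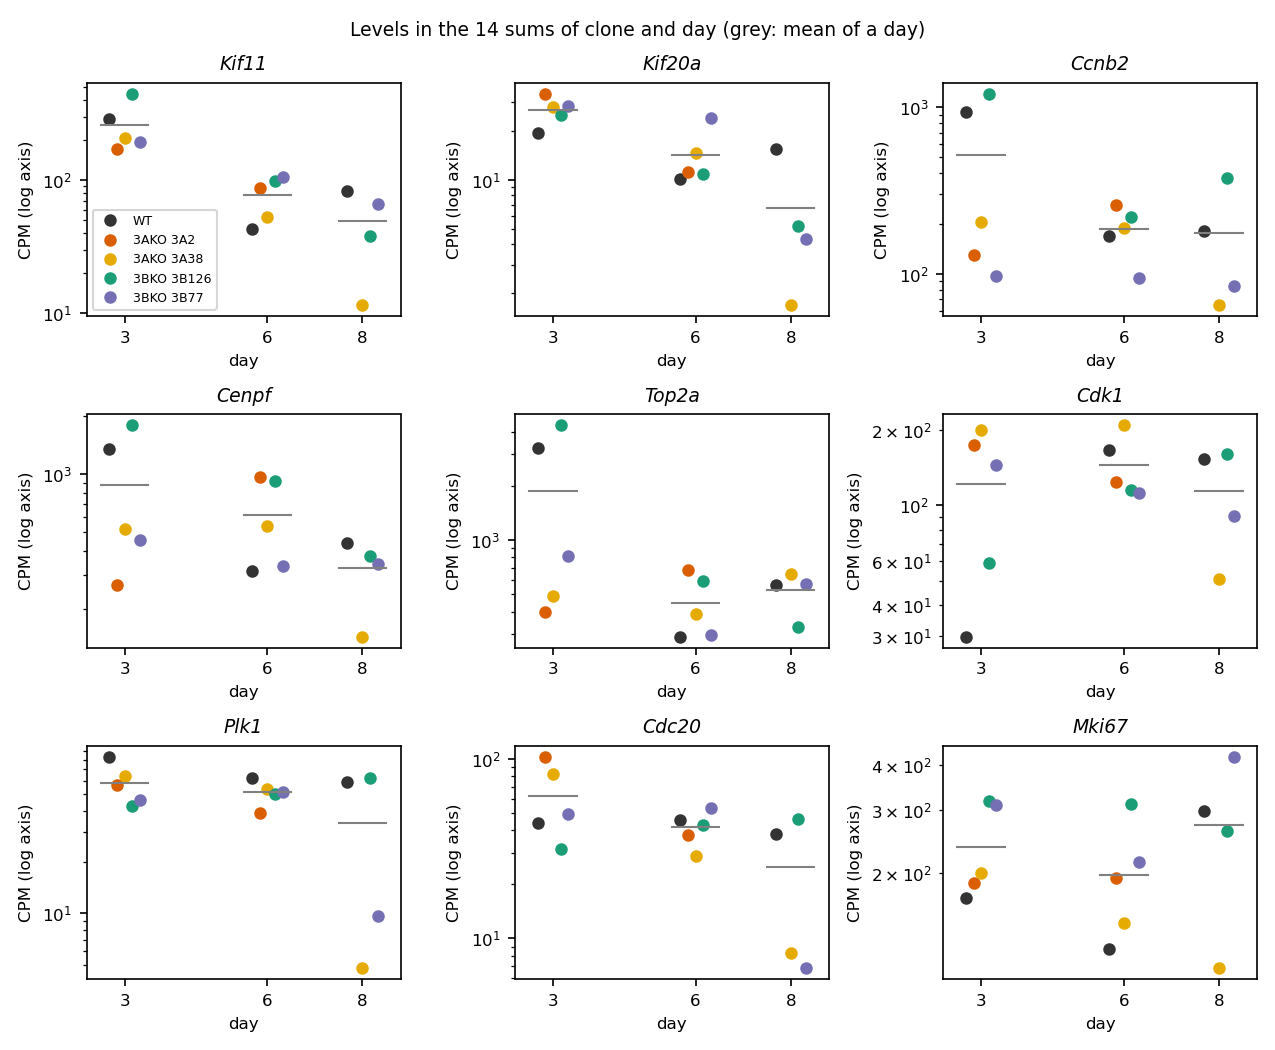
Each panel plots 1 gene's level in CPM on a log axis in the 14 sums by day, 1 point per clone, with a grey line at the mean of a day. For Kif11 every day 6 and day 8 point lies below all 5 day 3 points, and for Top2a, Ccnb2 and Cenpf the WT and 3B126 points of day 3 stand above the other 3.

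Among the other spindle genes, Hmmr, which binds spindle microtubules, had a log2 fold change of -2.20 ± 0.64 (adjusted p = 0.106), and Kif2c, a microtubule-depolymerising kinesin, one of -1.23 (0.329). Nusap1, a spindle-bundling protein, was at -0.13 ± 0.54 (adjusted p = 1.00). Its levels were 27.3 CPM in WT, 84.7 in 3A2, 103.6 in 3A38, 56.97 in 3B126 and 38.2 in 3B77 at day 3, and 23.5, 100.6, 48.5 and 30.7 in WT, 3A38, 3B126 and the library labelled 3B77 at day 8. The groups overlapped, although each of the 4 clones was lower at day 8.

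The 7 genes of the central spindle and cytokinesis all had negative values, with a median of -0.71. Kif20a, a kinesin of the central spindle, was furthest at -2.34 ± 0.64 (adjusted p = 0.0898). It stood at 19.3 CPM in WT, 33.8 in 3A2, 27.9 in 3A38, 24.9 in 3B126 and 28.3 in 3B77 at day 3. At day 8 it was at 15.4 in WT, 1.68 in 3A38, 5.19 in 3B126 and 4.31 in the library labelled 3B77, so the days did not overlap. Kif20b, a related kinesin, had -1.98 (adjusted p = 0.114) and Prc1, which bundles central spindle microtubules, -1.94 (0.0969). Kif23 and Racgap1, the partners of the centralspindlin complex, had -0.71 and -0.45, Ect2, their RhoA activator, -0.70, and Anln, a scaffold of the contractile ring, -0.62, with adjusted p from 0.595 to 0.924. Ect2 was uneven at day 8, with 223 CPM in 3A38 against 23.3 to 35.2 in the other libraries.

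Of the 4 genes of mitotic entry, Ccnb2, a B-type cyclin, had the largest change, -1.75 ± 0.72 (adjusted p = 0.240). Its day 3 levels were 938 CPM in WT and 1207 in 3B126, but 129.5 in 3A2, 203 in 3A38 and 96.98 in 3B77. Its day 8 levels were 179 in WT, 64.4 in 3A38, 377 in 3B126 and 83.8 in the library labelled 3B77, and the days overlapped. Ccnb1 was at -0.51 and Cdca3, which prompts the breakdown of the mitosis inhibitor Wee1, at -0.22. Cdk1, the kinase of mitotic entry, was at 0.26 (adjusted p = 1.00), one of 3 genes with a positive value.

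All 6 mitotic kinases and partners had negative values, with a median of -0.78. Plk1, a kinase of spindle assembly, had the largest, -1.48 ± 0.59 (adjusted p = 0.224). It stood at 83.2 CPM in WT, 56.3 in 3A2, 64.1 in 3A38, 42.6 in 3B126 and 45.99 in 3B77 at day 3. At day 8 WT held 59.4 and 3B126 62.7 CPM, whereas 3A38 held 4.75 and the library labelled 3B77 9.65. Tpx2, the activator of Aurora A, had -1.28 and Aurka itself -1.0. Aurkb, Birc5 and Cdca8, subunits of the chromosomal passenger complex, had -0.56, -0.27 and -0.22.

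The 5 genes of the spindle checkpoint group had a median of -0.97. Cdc20, the activator of the anaphase-promoting complex, was at -1.43 ± 0.61 (adjusted p = 0.254). Its day 3 levels were 43.95 CPM in WT, 102.7 in 3A2, 82.7 in 3A38, 31.5 in 3B126 and 49.3 in 3B77. Its day 8 levels were 38.1 in WT and 46.2 in 3B126, but 8.31 in 3A38 and 6.80 in the library labelled 3B77. The checkpoint kinases and adaptors Bub1b, Ttk and Bub1 had -1.05, -0.97 and -0.52, and Ube2c, the ubiquitin-conjugating enzyme of the complex, -0.35. Bub1b and Ube2c, like Cdc20, were lower at day 8 in 3A38 and in the library labelled 3B77 than in WT and 3B126. Ttk was higher in the first pair (70.3 and 185.8 CPM against 27.9 and 36.6), and Bub1 was lowest in WT (66.7) and highest in 3A38 (180.4).

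At the centromere and kinetochore, Cenpf had the largest change, -1.58 ± 0.58 (adjusted p = 0.185). It stood at 1359 CPM in WT, 267 in 3A2, 522 in 3A38, 1798 in 3B126 and 456 in 3B77 at day 3, and at 439, 143.4, 375 and 344.3 in WT, 3A38, 3B126 and the library labelled 3B77 at day 8. The lowest day 3 value lay among those of day 8. Ndc80 and its partner Nuf2, which hold microtubules, had -0.58 and -0.15, and Cenpe, a kinetochore motor, -0.32. Cenpa, the histone variant of centromeres, had the highest value of the 35, 0.70 ± 0.52 (adjusted p = 0.590). Nuf2 ranged from 16.5 to 146.7 CPM at day 3 and from 46.8 to 160 at day 8.

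Of the 4 genes of chromosome structure, Top2a, the topoisomerase that untangles sister chromatids, had -1.50 ± 0.58 (adjusted p = 0.208). Its day 3 levels were 3248 CPM in WT, 398 in 3A2, 490 in 3A38, 4349 in 3B126 and 814 in 3B77. Its day 8 levels were 562 in WT, 647 in 3A38, 328 in 3B126 and 571 in the library labelled 3B77. All but that of 3B126 lay between the day 3 levels of 3A2 and 3B77. The chromokinesins Kif4 and Kif22 had -1.16 and -0.45. Mki67, the coat protein of mitotic chromosomes, was the least changed of the 35 at 0.03 ± 0.45 (adjusted p = 1.00). It ranged from 170 to 317 CPM at day 3 and from 108.7 in 3A38 to 422 in the library labelled 3B77 at day 8.

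**Figure D4:**
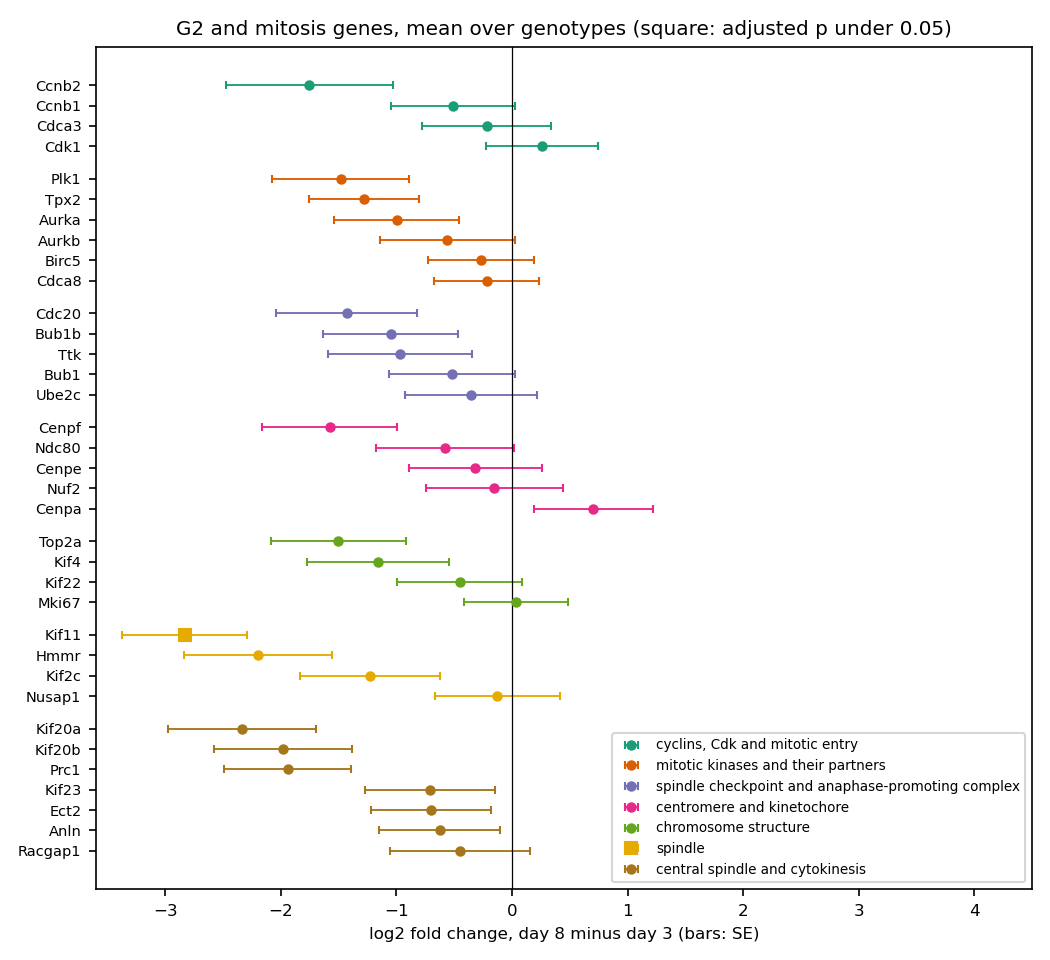
The x axis gives the log2 fold change from day 3 to day 8 of the 35 genes, with SE bars, grouped by role in colour. Kif11 (-2.83) is drawn as a square for its adjusted p under 0.05, 32 points lie left of 0, and Cenpa (0.70), Cdk1 (0.26) and Mki67 (0.03) lie right of it.

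The number of calls depended on the tool. DESeq2 called 6 of the 35 lower at day 8 (17.1%), Tpx2, Kif11, Hmmr, Prc1, Kif20a and Kif20b. Of the 16145 genes it gave an adjusted p, 6.8% were called lower. Sums of thinned cells gave 3 (8.57%), Kif11, Hmmr and Prc1, against 0.931% of 16437. Without the 3A38 day 8 library none of the 35 was called, and 23 had a negative value. In that fit only 1 gene of the whole table was called, so there the missing calls are not particular to the 35. None of the 35 was called without clone 3A38 or with clone as a replicate block either. In both of those fits other genes of the whole table were still called. They were more than in the main fit without clone 3A38, and slightly fewer with the block. Why the 35 had no call in those fits was not tested.

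Between day 3 and day 6, 0 of the 35 were called by edgeR, against 0.0374% of all genes, and 5 had an unadjusted p under 0.05 (14.3%, against 11.6%). Those were Kif11, Top2a, Ect2, Prc1 and Tpx2, with log2 fold changes of -1.95 ± 0.48, -1.92 ± 0.55, -1.72 ± 0.50, -1.36 ± 0.50 and -1.01 ± 0.44. Every day 6 level of Kif11, Ect2, Prc1 and Aurka lay below every day 3 level (11.4% of the 35, against 0.98% of all genes). DESeq2 called Top2a, Kif11, Prc1 and Ect2 lower (11.4%, against 3.46% of the genes it gave an adjusted p). For 4 of the 35 (11.4%, against 9.23% of all genes) both 3AKO clones moved one way and both 3BKO clones the other. From day 6 to day 8 none was called by edgeR or DESeq2, as for all genes in edgeR (0%), and 3 had an unadjusted p under 0.05 (8.57%, against 5.59%).

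The day 3 levels carried a difference between batches that was larger than most changes over time. The WT and 3B126 sums, both of batch 2, lay above the 3 other sums for 5 of the 35 genes (14.3%, against 15.2% of all genes). They lay below them for 17 (48.6%, against 22.5%). Top2a was higher in batch 2 by a ratio of means of 6.69, Ccnb2 by 7.48, Cenpf by 3.81, Hmmr by 2.79 and Kif11 by 1.92. Cenpa stood at 0.166 of the mean of the other clones, Cdk1 at 0.255, Nuf2 at 0.260, Ube2c at 0.274 and Ccnb1 at 0.319. Cdk1 was at 29.7 CPM in WT and 58.7 in 3B126 at day 3, against 145.3 to 200.2 in the other clones, and Cenpa at 13.9 and 18.7, against 53.2 to 122.1. Genes that work in 1 complex thus stood on both sides, Ccnb2 above and its kinase Cdk1 below. In sums of thinned cells Top2a was at 3568 and 4504 CPM in WT and 3B126, against 450 to 814.

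At day 6 fewer of the 35 genes stood apart by batch. The same 2 clones lay above the others for 0 of the 35 (against 6.9% of all genes) and below them for 2, Prc1 and Kif20a (5.71%, against 8.3%). The ratio of means was 0.965 for Top2a, 1.07 for Ccnb2 and 0.95 for Cdk1. What the 2 day 3 plates shared besides the batch was not tested.

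The genotypes were compared at each day, with WT as 1 sum per day that was taken to vary like the knockout clones. No member was called by edgeR in any of the 6 contrasts, and no gene of the whole table was called either (0% in each). For 3AKO against WT at day 3, 5 of the 35 (14.3%, against 7.62% of all genes) had an unadjusted p under 0.05. These were Top2a, Prc1 and Ccnb2 with negative and Cenpa and Cdk1 with positive values, and 4 of these 5, all but Prc1, were genes in which WT and 3B126 stood apart from the other batches. DESeq2 called Cdk1 and Cenpa higher in 3AKO (5.71%, against 3.45% of the genes it gave an adjusted p). At day 6, 0 of the 35 had an unadjusted p under 0.05 (against 1.42%), and DESeq2 called none.

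At day 8, 9 of the 35 (25.7%, against 5.66%) had an unadjusted p under 0.05 in 3A38 against WT, from 1 library on each side. Lower in 3A38 were Plk1, with 4.75 against 59.4 CPM (log2 fold change -3.64 ± 1.26), Kif23, with 4.80 against 55.8, Hmmr, with 6.13 against 71.3, and Kif11, Prc1, Tpx2, Kif20a and Kif4. Ect2 was higher, with 223 against 33.4 CPM. The smallest adjusted p was 0.816, and DESeq2 called Kif23 alone, lower in 3A38 (2.86%, against 1.37%). For 3BKO against WT, 0 of the 35 had an unadjusted p under 0.05 at days 3, 6 and 8 (against 3.13%, 1.86% and 1.58%), and DESeq2 called none. Between 3B126 and WT, the pair within batch 2, Plk1 stood at 62.7 and 59.4 CPM at day 8 and Cdc20 at 46.2 and 38.1. The WT plates lay on both sides of 3B126, with Plk1 at 14.2 CPM on C343 and 104.1 on C344 and Cdc20 at 16.5 and 63.3.

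The cell classes were built with Seurat without any of the 35 genes or the other cell cycle genes among the variable genes. Pluripotent-like cells (449) filled 3 clusters led by Dnmt3b and Pim2, by Zfp981 and Lncenc1, and by Slfn9 and Dppa3. Neural progenitor-like cells were led by Fabp7, Crabp2 and Pou3f3, neuron-like cells (100) by Dcx, Nefl and Nefm, and mesenchyme-like cells (76) by Col3a1, Lum and Postn. Gm10800 and Gm21738 were also among the leading genes of the neuron-like cluster. With all variable genes, the neuron-like cluster held 38 cells, and 88 cells led by Gm10801 and Gm10800 were named neural progenitor-like. At resolution 1.2 it also held 38 cells, and a cluster of 63 led by the same genes had no name. The neuron-like name thus depended on the clustering. So did the name of the pluripotent-like cluster led by Dnmt3b and Pim2 (162 cells). Its mean marker log2 fold was 0.398 for pluripotent and 0.307 for endoderm markers. At resolution 0.5 and with all variable genes, clusters of 258 and 209 cells with Dnmt3b, Trh and Pim2 among their leading genes had no name. The other cells were 95 endothelium-like, 37 blood-like and 99 of a cluster without a name, led by AW146154, Gja1 and Sp8, in which all 99 cells were G2/M-high. The classes are rebuilt here and may not match names given elsewhere.

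The share of G2/M-high cells was taken as a mean over libraries of all days with at least 5 cells. With days mixed, it was higher in pluripotent-like and neural progenitor-like cells than in mesenchyme-like and neuron-like cells. It was 91.8% ± 10.5 (SD, n = 12 libraries) in pluripotent-like cells and 82.6% ± 21.7 (n = 6) in neural progenitor-like cells. It was 57.8% ± 34.4 (n = 5) in mesenchyme-like cells and 54.1% ± 32.1 (n = 6) in neuron-like cells. Differences between neighbours in this order were smaller than the larger of their SDs. Without the libraries in doubt the means were 91.4% (n = 11), 81.4% (n = 5), 72.9% (n = 3) and 59.3% (n = 5). The order of the last 2 turned with a limit of 5 genes (63.2% and 66.4%) or 15 genes (37.6% and 47.1%) and without thinning (58.7% and 62.9%). Over cells pooled, the shares were 93.3%, 79.8%, 46.1% and 54% in that order, so that the last 2 changed places there too. The days differed between classes, since of these classes only pluripotent-like cells had day 3 libraries with at least 5 cells. At day 6 alone the means were 94.9% (n = 4), 91.3% (n = 3), 95% (n = 2) and 69.5% (n = 3) in the same order. Mesenchyme-like cells were thus not lower there. At day 8, libraries in doubt included, they were 82.8%, 73.9%, 33% and 38.8% (n = 3 each).

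Pluripotent-like cells were G2/M-high in 82.4% to 100% of cells per library at day 3 and 91.7% to 100% at day 6. At day 8 they were in 23 of 24 WT cells, all of plate C344, and 9 of 10 of 3B126, and in 5 of 8 of 3A38 (62.5%, interval 24.5 to 91.5). Different clusters held the class, since all 60 cells of 3A2 at day 6 lay in the cluster led by Slfn9 and Dppa3, and none of its 64 day 3 cells did.

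In neural progenitor-like cells at day 8 the share was 16 of 18 in WT, 18 of 20 in 3B126 and 9 of 21 in 3A38 (42.9%, interval 21.8 to 66). At day 6 it was 17 of 23 in 3A38, 21 of 21 in 3B77 and 6 of 6 in WT. The 18 WT cells of day 8 were all from plate C344, which had no Y-linked reads and whose label is in doubt.

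Neuron-like cells differed widely between libraries. At day 8, 10 of 12 in 3B126 were G2/M-high (83.3%, interval 51.6 to 97.9), but 1 of 22 in 3A38 (4.55%, 0.115 to 22.8) and 2 of 7 in WT (28.6%, 3.67 to 71), all 7 from plate C344. The intervals of 3B126 and 3A38 did not overlap, but they cover counting error within a library only. At day 6 the counts were 25 of 29 in 3B77, 10 of 15 in WT and 5 of 9 in 3B126. The median neuron-like cell had a read for 18.5 of the 35 genes in 3B126 at day 8 and for 1 in 3A38, and the median of all genes detected was 4010.5 and 2722.5 in those cells.

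Mesenchyme-like cells were G2/M-high in 9 of 10 WT and 7 of 7 3A38 cells at day 6. At day 8 the counts were 6 of 15 in WT (40%, interval 16.3 to 67.7), 6 of 21 in 3A38 (28.6%, 11.3 to 52.2) and 7 of 23 in the library labelled 3B77 (30.4%, 13.2 to 52.9). Of the 15 WT cells, 14 came from plate C343. Only 3A38 gave both days without a doubtful library, from 7 of 7 to 6 of 21 with intervals that did not overlap (59 to 100, and 11.3 to 52.2).

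**Figure D5:**
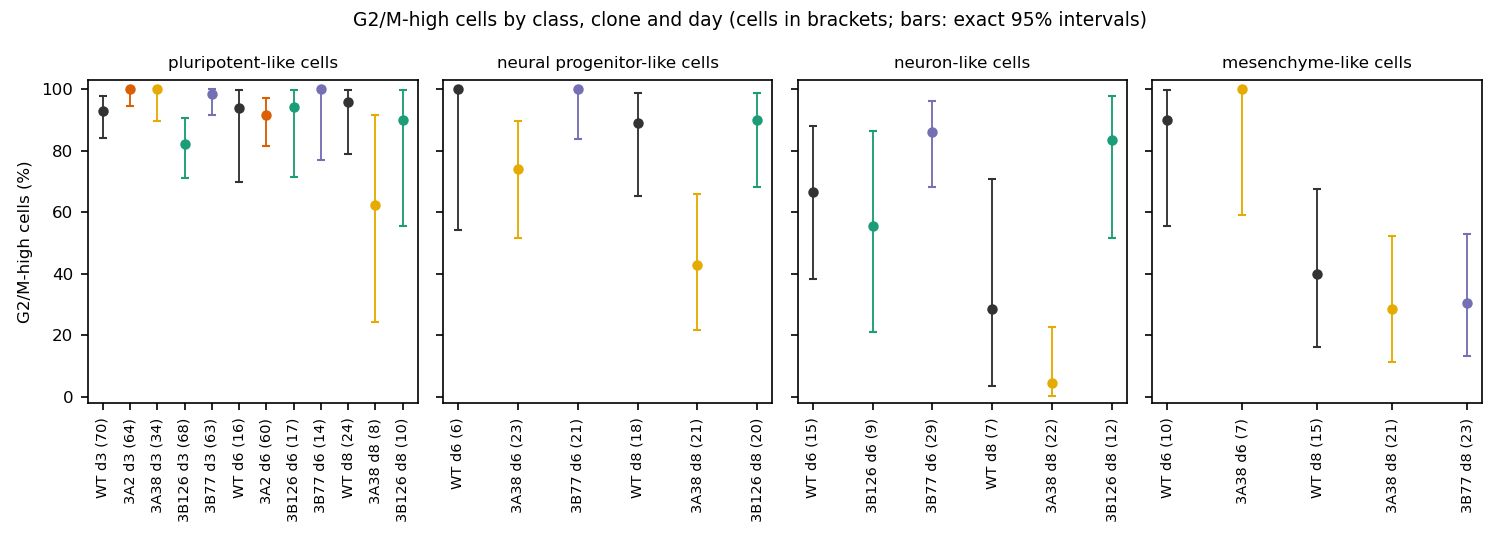
Points give the percentage of G2/M-high cells in each clone and day with at least 5 cells of a class (number in brackets), with exact 95% intervals, in 1 panel per class. In the neuron-like panel 3B126 at day 8 sits at 83.3% and 3A38 at 4.55%, and in the mesenchyme-like panel the 3 day 8 points (28.6% to 40%) lie below both day 6 points.

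Gene by gene, neuron-like cells had a lower share of cells with a read than neural progenitor-like cells for all 35 genes. The gap was widest for Cdca3 (39% against 69.7%), Cdca8 (49% against 78.9%) and Birc5 (52% against 79.8%), and smallest for Bub1 (57% against 61.5%) and Kif11 (37% against 42.2%). Prc1 was read in 15.0% of neuron-like, 15.8% of mesenchyme-like and 55.7% of pluripotent-like cells. Racgap1 was read in 42.1% of mesenchyme-like cells, close to its 45.9% in neural progenitor-like cells. These classes differ in clone and day, so the shares describe the cells pooled here. The median of all genes detected after thinning was 3875.5 in neuron-like and 4336 in neural progenitor-like cells. Its part in the lower detection of the 35 genes was not tested.

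Other genes of the cell cycle were placed beside the 35. From day 3 to day 8, edgeR called 0.154% of all genes lower and 0.669% higher. An unadjusted p under 0.05 was found for 16.3% of all genes, and DESeq2 called lower 6.8% of the genes it gave an adjusted p. The counts for each list below are to be read against these shares. From day 3 to day 8, 1 of 56 other G2 and M phase genes was called lower, 49 of 56 had negative values, and their median was -0.88. The call was Tubb4b, a tubulin, with 1167 CPM in WT, 737 in 3A2, 378.2 in 3A38, 1137 in 3B126 and 452 in 3B77 at day 3, and 237 in WT, 23.2 in 3A38, 208 in 3B126 and 88.9 in the library labelled 3B77 at day 8. The groups did not overlap, and the log2 fold change was -3.10 ± 0.61 (adjusted p = 0.0279). DESeq2 called 11 of the 56 lower, against 6.8% of the genes it gave an adjusted p. Troap, a spindle-associated protein, had -3.13 (adjusted p = 0.173) at levels under 9 CPM.

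None of 43 genes of S phase and DNA replication was called by edgeR, 39 of 43 had negative values, and their median was -1.05. An unadjusted p under 0.05 was found for 16 of the 43 (against 16.3% of all genes). DESeq2 called 11 lower (against 6.8% of the genes it gave an adjusted p). Fen1, the flap endonuclease, had -3.66 at levels under 3 CPM, and Ung, the uracil glycosylase, -2.63 (adjusted p = 0.107). Of 12 G1 cyclins and Cdks none was called by edgeR (median -0.63, 2 with an unadjusted p under 0.05), and DESeq2 called Ccnd1 lower and Ccnd2 higher. Ccnd1, cyclin D1, had -3.13 (adjusted p = 0.0606) and Ccnd2, cyclin D2, 2.80 (0.0700). Of 16 regulators of G2 and M transcription none was called by edgeR (median -0.47, 3 with an unadjusted p under 0.05), and DESeq2 called Mybl2 and Foxm1 lower. In edgeR, Mybl2, the B-Myb factor of late cell cycle promoters, was at -2.38 and Foxm1, the forkhead factor of G2, at -1.94 (adjusted p = 0.218 and 0.190).

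Among 18 Cdk inhibitors and genes of cell cycle exit, 2 were called higher by edgeR at day 8 (against 0.669% of all genes). The list median was 0.34, with 12 positive and 6 negative values. DESeq2 called Btg1, Ccng2 and Gas1 higher and Rbl1 lower. Gas1, a growth arrest protein of the cell surface, rose from 1.80 CPM in WT, 4.30 in 3A2, 12.5 in 3A38, 18.3 in 3B126 and 4.77 in 3B77 to 31.5 in WT, 592 in 3A38, 52.7 in 3B126 and 70.1 in the library labelled 3B77. The log2 fold change was 4.23 ± 0.67 (adjusted p = 0.0156), and the days did not overlap. Ccng2, an unconventional cyclin of arrested cells, rose by 3.50 ± 0.77 (adjusted p = 0.0466). It was higher in 3 of 4 clones, and in 3B126 it went from 23.1 to 21.1 CPM.

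The 35 genes varied together from cell to cell within plates. Over 965 cells, after plate means were subtracted, all 595 pairs had a correlation above 0, with a median Pearson r of 0.272. The highest was between Ccnb1 and Ube2c (0.606) and the lowest between Ccnb2 and Prc1 (0.0477). Each gene against the sum of the other 34 gave an r of 0.241 (Kif20a) to 0.610 (Cenpf), with a median of 0.392. Cells of a plate share their preparation, and the number of genes detected per cell bears on all pairs, so these values are descriptions.

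Outside the set, 9127 genes with a read in at least 10% of cells were compared with the summed reads of the 35, and their median r was 0.0292. The 10 most alike were Cks2 (0.590), Hmgb2 (0.544), Spc25 (0.523), Tacc3 (0.488), Ccna2 (0.459), Cks1b (0.439), Smc4 (0.436), Mad2l1 (0.434), Cenph (0.419) and Ckap2l (0.416). All 10 belonged to the list of other G2 and M phase genes. The first genes outside every list, named after their values were seen, were Kpna2 (0.389) and Pttg1 (0.389).

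Levels between genes can be compared only per length. Per kilobase of exon, the mean level over the 14 sums was highest for Ccnb2 (196 CPM per kb), Top2a (108.2), Ube2c (57.04), Ccnb1 (49.9) and Bub1 (44.3), and lowest for Kif20a (3.81). The table also held the pseudogenes Ccnb1-ps, Ccnb2-ps and Kif22-ps, whose reads could be split from those of their parents. Exons of 9 of the 35 overlapped another annotated gene, such as Elovl1 for Cdc20 and Oip5 for Nusap1, and the strand setting of the counting was not stated.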

How the data were processed

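Single cells were sorted into plates and profiled by modified Smart-seq2, a full-length method that uses no molecular identifiers. PCR copies thus count as reads. The authors deposited raw counts of reads per gene and cell. According to the study's methods reads were checked with FastQC 0.11.2, trimmed with Trim Galore 0.5.0, aligned to mm10 (GRCm38) with STAR 2.7.1a and counted with featureCounts 1.6.1 (exons, summed by name of the gene, GENCODE annotation), without multi-mapped reads. For strand, the setting is not stated. The authors kept cells with at least 50000 reads, at least 2000 genes and at most 50% mitochondrial reads, and all 965 cells met these limits.

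Cells are not replicates, so counts were summed per clone and day (14 sums). They were tested with edgeR 4.0.16 in R 4.3.3 (TMM scaling, filterByExpr, glmQLFit with robust estimation and glmQLFTest on 9 genotype-by-day means), which left 24083 genes. Day contrasts averaged the genotypes. Genes with an adjusted p (Benjamini-Hochberg, over all genes) under 0.05 were called. Log2 fold changes are given with SE, and CPM are scaled by TMM. Single sums (WT at each day, 3AKO at day 8) were assumed to vary like the groups with 2 clones. The p-values measure the spread between clones of a genotype, not between repeat cultures of a clone. For 3BKO the 2 clones came from different batches, so that this spread also holds differences between batches. At day 8 it also holds the 3B77 library whose label is in doubt. DESeq2 1.42.0, RLE scaling, no filter, thinned cells, and leaving out clones or libraries were alternatives. The sums of a clone recur across days, so that the clone pairs them. The correlations of their deviations from the mean of each day ran from -0.0896 to 0.125, and the fit with clone as a replicate block was an alternative. The edgeR steps were tested on simulated data.

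For values per cell, each cell was thinned to 50000 reads at random. Cells were clustered with Seurat 5.3.0 (2000 variable genes less 18 cell cycle genes, integration over 3 batches, 8 principal components, resolution 0.8). A cluster was named for the marker list with the highest mean log2 fold of CPM + 10 against the other cells, if at least 0.25 with at least 3 markers higher, a limit chosen after the data were seen. Shares have exact (Clopper-Pearson) 95% intervals and no test.

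The 35 genes, the gene lists and the tests were chosen with earlier results of these data known. Every member was described by role. Values in every sum were given for members called in any contrast and for the member of each role with the largest change from day 3 to day 8. The 3 members with the smallest change were named too, as were genes of the other lists that were called or were 1 of the 2 most changed of their list. The batch comparison at day 3 was added after the data were seen. Promoters come from RefSeq (GRCm38.p6), and gene positions, exon lengths and overlaps of exons from a GENCODE annotation of the same genome.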

Additional observations from a re-analysis of the deposited data

Results flagged for a closer look

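Between day 3 and day 6, 3 of 10 genes checked had sums of all reads that moved in opposite directions in the clones of the knockout genotypes. For Cenpf, the change in CPM was higher in 3AKO than in 3BKO by 857. Both 3AKO sums were higher at day 6 (3A2 from 267 to 970 CPM, 3A38 from 522 to 540), and both 3BKO sums lower (3B126 from 1798 to 925, 3B77 from 456 to 336). For Cdc20, the difference in change was -66.8 CPM. It went from 102.7 to 37.8 in 3A2 and from 82.7 to 28.8 in 3A38, whereas 3B126 went from 31.5 to 42.6 and 3B77 from 49.3 to 53.02. For Plk1 the difference was -20.5 CPM, with 56.3 to 39.1 in 3A2 and 64.1 to 53.7 in 3A38, against 42.6 to 50.2 in 3B126 and 45.99 to 51.7 in 3B77. In sums of thinned cells, compared after the data were seen, 1 of the 3 genes, Cdc20, kept opposite directions. There Cenpf went from 466.1 to 439 CPM in 3A38. Plk1 was lower at day 6 in 3B126 (66.9 and 54.5 CPM) and in 3B77 (73.9 and 71.8 CPM). Over all genes, 9.23% had opposite directions in all 4 clones. These differences were not tested, and 3AKO and 3BKO come from different batches. Of 36 groups of 4 or 5 sums checked for a single sum far from the others, 0 were found.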

How the results depend on the processing

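Of 87 counts of members called under an alternative, 75 stayed within 1.5 times the value given above, 9 were higher and 3 lower. Only the contrast from day 3 to day 8 had a call above, so most of the 75 set 0 beside 0. From day 3 to day 6 (0 called), DESeq2 gave 4, no filter on low counts 2, and leaving out single clones 0 to 2, the highest without 3B77. From day 3 to day 8 (1 called), DESeq2 gave 6, no filter 3, thinned cells 3, and thinned cells without WT day 8 and the library labelled 3B77 gave 4, a combination chosen after the data were seen. Leaving out single clones gave 0 to 1, with 0 without 3A38, and leaving out only 3A38 at day 8 gave 0. With clone as a replicate block 0 were called, and with the block on thinned cells, also chosen later, 1. The block changed no call in the other day contrasts. For 3AKO against WT, DESeq2 gave 2 at day 3 and 1 at day 8. Kif11 kept a negative value under all its alternatives and lost its call without 3A38 (-2.26), without 3A38 at day 8 (-2.25) and with the replicate block (-2.59). RLE scaling moved the median of all genes for 3AKO against WT at day 3 from 0.35 to 0.25 and changed no call. The cause of these shifts was not tested.

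The mean G2/M-high share moved at day 3 to 83.4% with at least 15 genes and to 82% where Mki67 and Top2a were both required. At day 6 it moved to 95.8% with at least 5 genes, 77.4% with 15, 69.3% with Mki67 and Top2a, 94.5% without thinning and 81.1% with at least 2 reads per gene. The neuron-like share went from 54.1% (n = 6) to 35.2% (n = 3) with all variable genes and at a higher clustering resolution. The mesenchyme-like share went from 57.8% (n = 5) to 31.3% (n = 2) without integration and to 37.6% with at least 15 genes. The neuron-like share could not be computed without integration, since 1 library had at least 5 such cells. Depth limits single genes in single cells, since Kif20a had a read in 32.5% of cells. WT has 1 sum per day, and 3A2 adds none at day 8.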
